A study of Ovis aries with 9 samples.

Results

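ATF4 and 9 genes that it is known to switch on in amino acid shortage and stress were followed in ovine granulosa cells (GCs) under 3 supplies of glucose. The genes were ATF4, DDIT3, ASNS, TRIB3, CHAC1, PSAT1, PHGDH, SHMT2, MTHFD2 and SLC7A11, each taken from the gene expression table by its symbol. Of these 10, 9 had a row among the 39157 genes of the table, and all 9 passed the filter on low values. MTHFD2, a mitochondrial enzyme of folate metabolism, had no row under that symbol and was not analysed here. All cells came from small immature follicles of young adult thin-tailed Han ewes, a year of age or somewhat older, whose follicle contents were pooled over many ovaries before culture. Every group was first kept for 8 h in medium with neither glucose nor serum, and then for 24 h with 0 mM glucose (CON), 8.4 mM glucose (LOW) or 33.6 mM glucose (HIGH), with 3 libraries per group. CON cells were therefore without glucose in both periods, and no group without the first period of deprivation was sequenced. Since the cells were pooled before plating and nothing in the labels names separate pools, p-values here measure the spread between these cultures or libraries and not between animals.

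ATF4 is the transcription factor at the end of the integrated stress response. Kinases that sense amino acid shortage, unfolded proteins, haem or double-stranded RNA phosphorylate the translation factor eIF2 alpha, general protein synthesis slows, and the ATF4 message is translated more efficiently through upstream reading frames in its leader. ATF4 protein then binds C/EBP-ATF response elements and raises genes of amino acid uptake, of asparagine and serine synthesis and of stress signalling. The main control is thus on ATF4 translation, which RNA levels do not show, and the target genes are the usual readout of the pathway.

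The deposited unit was FPKM, fragment numbers corrected for transcript length and library depth, and each library was further scaled on the median of the 10665 genes that reached an FPKM of 1 in all 9 libraries. Unless stated otherwise, levels below are such scaled FPKM, and fold changes are differences of group means of log2(scaled FPKM + 0.1), the first-named group over the second. An FPKM of 1 stood for 48.0 to 71.3 fragments per kilobase, so the depth was sufficient for the more abundant genes and thin for CHAC1. Some libraries stood apart from the rest of their group. Small RNA genes took 32.0% of all FPKM in HIGH library 1, 54.0% in HIGH library 2 and 56.7% in CON library 1, against 69.5% to 76.0% in the other 6, and the same 3 libraries detected the most genes (13004 to 13270 with FPKM of 1 or more, against 12023 to 12527). Of the granulosa markers, CYP11A1, the first enzyme of steroid synthesis, stood at 139.6 to 201, whereas FSHR, the receptor for follicle-stimulating hormone, stood at 0.573 or less, and CYP19A1, FOXL2 and AMH had no row. In bulk RNA, fewer cells of a type and less RNA per cell cannot be told apart.

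None of the 9 genes was called in any comparison. A call needed a log2 fold change beyond 1 in size together with an adjusted p below 0.05 in limma, with BH adjustment over the 24324 genes tested. Calls were scarce among all genes too, with 0.00411% called in CON versus LOW, 0.00411% in LOW versus HIGH and 0.00822% in CON versus HIGH. At an unadjusted p under 0.05 the members gave 0 genes in CON versus LOW (2.17% of all genes) and 0 in LOW versus HIGH (6.84%), with 1 in CON versus HIGH (6.54%). The median log2 fold change of the 9 genes was -0.01, 0.06 and 0.13 for CON versus LOW, for CON versus HIGH and, last, for LOW versus HIGH, beside -0.02, -0.08 and -0.04 for all genes tested. The median size of the change, without its sign, was 0.11, 0.21 and 0.33 for the members and 0.17, 0.28 and 0.28 for all genes.

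The intervals say how large an undetected change could have been. The 95% interval of the fold change lay between -1 and 1 on the log2 scale for 9 of 9 genes in CON versus HIGH and for 8 of 9 in each comparison with LOW. The gene whose interval reached further was DDIT3 in both cases. For the remaining 8 genes a doubling or halving on this scale lay outside the interval in every comparison, whereas smaller changes lay inside it.

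**Figure D1:**
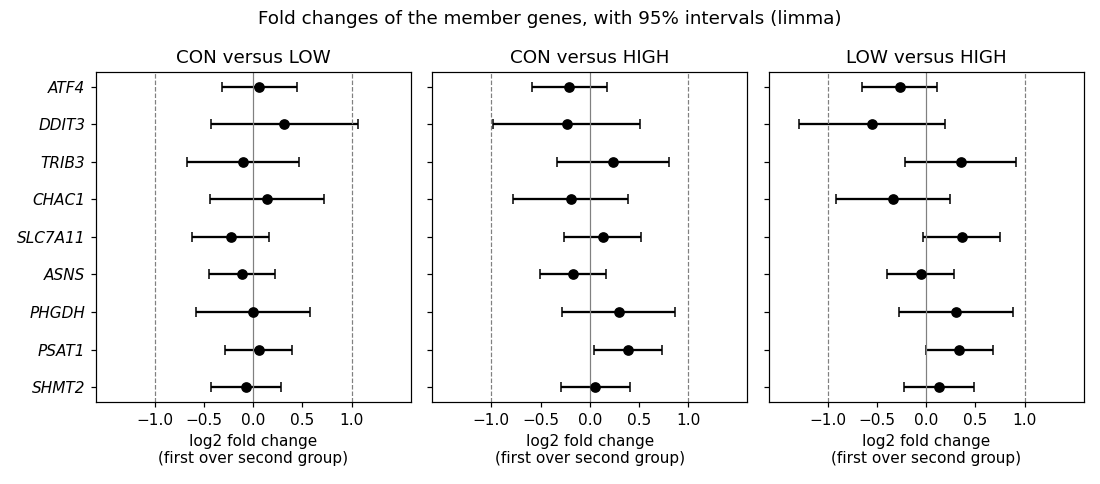
Log2 fold change of each of the 9 genes (points) with its 95% interval from limma (bars) in the 3 comparisons of the glucose groups, with n = 3 libraries per group. Solid lines mark no change and dashed lines mark 1 and -1. PSAT1 in CON versus HIGH (0.39) is the one interval clear of 0, and DDIT3 has the widest intervals.

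The regulator itself was abundant and varied as much within groups as between them. ATF4 (ENSOARG00000016775, chromosome 3:214930338-214931586, in the coordinates of the deposited table) stood at 90.2, 75.4 and 61.1 in the CON libraries 1, 2 and 3. The LOW libraries, in the same order, held 68.0, 81.0 and 66.5, and the HIGH libraries held 93.6, 92.2 and 74.0. The group means were 75.6 ± 14.5 in CON, 71.8 ± 7.98 in LOW and 86.6 ± 10.9 in HIGH (SD, n = 3). All 3 groups overlapped, with a CON library near the top of the HIGH range and another below every other library. In limma the log2 fold change was 0.06 in CON versus LOW (SE 0.17, adjusted p = 1), -0.21 in CON versus HIGH (adjusted p = 0.700) and -0.27 in LOW versus HIGH (adjusted p = 0.697). With the small RNA share as a covariate the differences from HIGH shrank to -0.045 and -0.024. Cells without glucose therefore did not differ detectably in ATF4 message from cells with 8.4 mM, with an interval of the difference from -0.32 to 0.44.

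Among the stress effectors, DDIT3 (CHOP) encodes a transcription factor that promotes death under unresolved stress. Its gene row (ENSOARG00000006500, 3:161849922-161872981) held 2.60, 1.40 and 2.68 in CON, 2.69, 1.27 and 1.43 in LOW, and 2.94, 2.10 and 2.65 in HIGH. HIGH had the highest mean, 2.56 ± 0.423, but the LOW library 1 lay inside the HIGH range, and no fold change passed the test (largest in LOW versus HIGH, -0.55, 95% interval -1.30 to 0.20, limma adjusted p = 0.694).

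The DDIT3 row cannot be read as DDIT3 message alone. Its annotated transcript DDIT3-201 was listed at 0 in all 9 libraries. The gene value instead sums 12 assembled transcripts that lie across MARS (3:161850198-161872924), the gene of the methionyl-tRNA synthetase that charges methionine onto its tRNA. Reads and their strands were not examined here, so how far reads of the 2 genes were mixed in this stretch was not tested. In the RefSeq annotation of another sheep assembly (ARS-UI_Ramb_v3.0), DDIT3 and MARS1 also overlap. MARS itself stood at 6.16 to 7.54 in all libraries. The 3 shorter assembled transcripts, with spans of 6615 to 6618 bases, together held 1.52, 0.408 and 1.91 in CON, 1.40, 0.0490 and 0.618 in LOW, and 2.73, 1.54 and 0.953 in HIGH. The 9 longer ones held 1.08, 0.990 and 0.684 in CON, 1.31, 1.21 and 0.828 in LOW, and 0.262, 0.574 and 1.70 in HIGH. The split between short and long forms thus differed widely among libraries of the same group, more than their sum did, and none of the 9 DDIT3 transcripts tested was called. The most abundant of them, TCONS_00200924, had a log2 fold change of -1.50 in LOW versus HIGH, with a 95% interval from -3.31 to 0.30. The widest departure from 0 was that of the short transcript TCONS_00200926 in CON versus HIGH, -1.80 (95% interval -3.52 to -0.08, limma unadjusted p = 0.0422, adjusted p = 0.763), named after its value was seen.

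**Figure D2:**
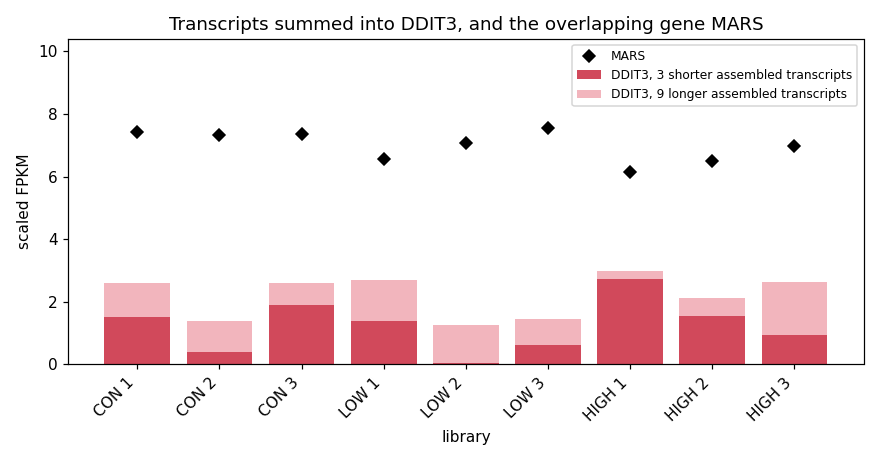
Scaled FPKM in each library of the assembled transcripts summed into the DDIT3 row, as stacked bars for the 3 shorter and the 9 longer transcripts, and of the overlapping gene MARS (diamonds). MARS is steady at 6.16 to 7.54, while the shorter DDIT3 transcripts run from 0.0490 in LOW library 2 to 2.73 in HIGH library 1.

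TRIB3, a pseudokinase induced by ATF4 and DDIT3 that in turn restrains ATF4, was a gene of low level (ENSOARG00000019129, 13:59928054-59936548). Its values were 1.86, 2.04 and 3.16 (CON), 2.52, 2.44 and 2.47 (LOW), and 1.39, 2.19 and 2.32 (HIGH). The LOW libraries lay close together (SD 0.0398) and above all HIGH libraries, whereas CON overlapped both groups. The log2 fold change in LOW versus HIGH was 0.35 (SE 0.25, limma adjusted p = 0.702), and the intervals of all 3 comparisons crossed 0. With the small RNA share as a covariate the direction turned, to -0.080 in LOW versus HIGH.

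CHAC1, which degrades glutathione and is among the most sensitive ATF4 targets in other cells, was the lowest of the 9 (ENSOARG00000020312, 7:33499185-33500057). Its values were 0.853, 1.31 and 1.01 in CON, 0.952, 0.977 and 0.884 in LOW, and 1.16, 1.66 and 0.910 in HIGH. The top and bottom of the range came from libraries of HIGH and CON, and the groups overlapped in every comparison. With at most 36 to 81 fragments per library by the deposited count-like table, which multiplies by genomic span, CHAC1 had the fewest fragments of the 9 genes, and its log2 fold changes of 0.14, -0.19 and -0.33 all had intervals across 0.

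Amino acid uptake was represented by SLC7A11, the cystine-glutamate exchanger that feeds glutathione synthesis (ENSOARG00000014253, 17:19076299-19158878). CON held 3.88, 3.18 and 2.69, LOW held 3.85, 4.06 and 3.48, and HIGH held 2.77, 3.32 and 2.73. All 3 LOW libraries exceeded all 3 HIGH libraries, while CON reached from below HIGH to the middle of LOW. The difference between LOW (3.80 ± 0.291) and HIGH (2.94 ± 0.332; SD, n = 3) was 0.36 on the log2 scale (SE 0.17, 95% interval -0.03 to 0.75) and did not pass the test (limma unadjusted p = 0.0683, adjusted p = 0.690). The deposited transcripts divide this gene almost equally, with 49.0% of its FPKM on SLC7A11-201 over the whole locus and 51.0% on TCONS_00097826, an assembled transcript over 3669 bases at one end (17:19076299-19079967). In LOW versus HIGH the annotated transcript gave a log2 fold change of 0.50 (SE 0.25) and the short one 0.18 (SE 0.23), and neither was called.

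ASNS, which makes asparagine from aspartate and is the classical marker of amino acid shortage, held 18.2, 15.2 and 12.9 in CON, 16.8, 16.4 and 16.5 in LOW, and 16.5, 15.7 and 19.9 in HIGH (ENSOARG00000004686, 4:14991159-15012561). LOW lay inside the range of CON and of HIGH, which both reached beyond it on either side. Its log2 fold changes were -0.06 in LOW versus HIGH and -0.17 in CON versus HIGH (SE 0.15 each, limma adjusted p = 0.904 and 0.708), and the interval of CON versus LOW ran from -0.45 to 0.23.

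The enzymes of serine and one-carbon metabolism were the most abundant targets. PHGDH, the first and committed step from glycolysis into serine, had levels of 42.1, 52.2 and 74.7 in CON, 50.5, 57.8 and 56.9 in LOW, and 33.6, 42.1 and 63.0 in HIGH (ENSOARG00000020412, 1:96205089-96241621). Library 1 was low and library 3 high in both CON and HIGH, and all groups overlapped. The log2 fold change of 0.29 in CON versus HIGH (SE 0.26, limma adjusted p = 0.707) was close to its own SE, and it turned to -0.065 with the small RNA share as a covariate.

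PSAT1, the aminotransferase of the following step, gave the one difference past an unadjusted threshold. It held 45.9, 47.7 and 62.0 in CON, 50.1, 48.7 and 49.7 in LOW, and 34.1, 38.5 and 45.8 in HIGH (ENSOARG00000012354, 2:58082457-58109069). No HIGH library reached a LOW or a CON library, though HIGH library 3 and CON library 1 nearly touched. The mean of 51.9 ± 8.84 in CON and 49.5 ± 0.755 in LOW compared with 39.5 ± 5.92 in HIGH (SD, n = 3), which is 1.31-fold higher in CON (log2 fold change 0.39, SE 0.15, 95% interval 0.05 to 0.73, limma unadjusted p = 0.0300, adjusted p = 0.699). LOW versus HIGH gave 0.34 (SE 0.15, limma unadjusted p = 0.0539, adjusted p = 0.690). The result does not pass correction over all genes. In CON versus HIGH it also missed the unadjusted threshold with CON and HIGH fitted alone (0.39) and without HIGH library 2 (0.38), where the log2 fold change stayed near its value. It was smaller, and missed the threshold too, without HIGH library 1 (0.29), without CON library 3 (0.25) and with the small RNA share as a covariate (0.22). That covariate took LOW versus HIGH to 0.085.

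Some cell type markers separated HIGH from both groups, as PSAT1 did. The summed level of the 7 granulosa markers present was 184 to 197 in HIGH, below the 203 to 220.3 of LOW and the 219 to 254 of CON, but most of that sum was CYP11A1. The 7 markers had no common direction, since 3 of 7 were higher in LOW than in HIGH. GATA4 reached 9.76 in HIGH library 1 against at most 7.23 in CON and LOW, but 7.15 and 5.07 in HIGH libraries 2 and 3. The sum of the 8 stroma and smooth muscle markers was 1849 to 1959.8 in HIGH, above the 1641 to 1754 of LOW and the 1719 to 1768 of CON. The collagens carried this difference, with COL1A1 at 38.4 to 126 in HIGH and at most 32.2 in the other groups, whereas the smooth muscle actin ACTA2, the largest term of the sum, was 704 to 911 in HIGH and 821 to 944 in the other groups. The part of these markers in the PSAT1 difference was not tested. In every group the stroma and smooth muscle sum lay far above the granulosa sum, although sums over different genes do not give shares of cells. Most markers of the remaining cell types were low. The 4 endothelial markers summed to at most 0.173 with CDH5 listed at 0 throughout, and the 4 oocyte markers present to at most 1.17 with BMP15 listed at 0. The 3 theca markers summed to at most 8.16, nearly all of it STAR, which granulosa cells also express. The 5 immune markers summed to 14.9 to 20.7, nearly all of it CD68 (7.43 to 13.2) and CD14 (6.29 to 7.48). The immune markers PTPRC, CSF1R and CD3E stood at 0.695 or less.

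SHMT2, which moves a carbon unit from serine to folate in mitochondria, was the steadiest of the serine enzymes. Its values were 26.8, 29.3 and 39.1 in CON, 32.7, 33.0 and 33.2 in LOW, and 26.6, 30.6 and 33.6 in HIGH (ENSOARG00000007179, 3:162102921-162108453). CON covered nearly the whole range of both other groups, and the log2 fold changes were -0.07, 0.06 and 0.13 (SE 0.16 each, limma adjusted p of 0.775 or more), of which all 3 changed sign with the small RNA share as a covariate.

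**Figure D3:**
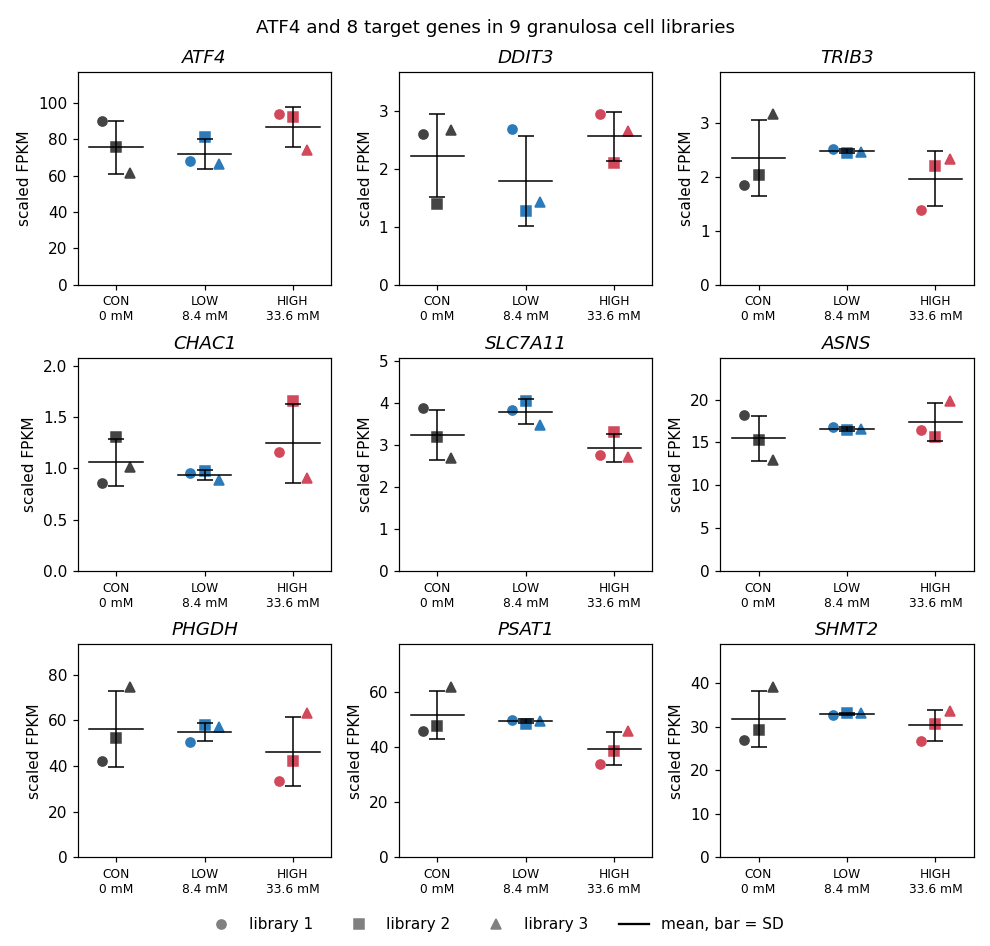
Scaled FPKM of ATF4 and 8 targets in every library of CON (0 mM), LOW (8.4 mM) and HIGH (33.6 mM), on axes that start at 0, with the replicate number as the symbol, the group mean as a line and the SD as a bar (n = 3). PSAT1, TRIB3 and SLC7A11 have all LOW libraries above all HIGH libraries, and in 8 of the 9 panels the LOW libraries lie closest together on the log2 scale.

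Groups without overlap were seen for 0 of 9 genes in CON versus LOW, beside 6.58% of all genes tested. The count was 1 of 9 (PSAT1) in CON versus HIGH, beside 9.85%, and 3 of 9 (PSAT1, TRIB3 and SLC7A11) in LOW versus HIGH, beside 17.7%. With 9 genes these counts do not set the members apart from the background. No target had all CON libraries above or below all LOW libraries. LOW had the smallest SD of the 3 groups for 8 of 9 members, beside 58.3% of all genes tested, so the close agreement of the LOW libraries was found well beyond these genes.

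The order of levels was nearly fixed across libraries. By mean FPKM over the 9 libraries, a level per length of transcript, it ran from ATF4 (78.0) through PHGDH (52.6), PSAT1 (46.9), SHMT2 (31.7) and ASNS (16.5) to SLC7A11 (3.33), TRIB3 (2.26), DDIT3 (2.19) and CHAC1 (1.08). ATF4 exceeded 96.1% of the 11041 named genes tested other than small RNA genes, PSAT1 92.9%, and CHAC1 18.2%. Neighbours in this order kept their rank in 9 of 9 libraries for PSAT1 over SHMT2, SHMT2 over ASNS, ASNS over SLC7A11 and DDIT3 over CHAC1. TRIB3 and DDIT3 could not be ordered, with TRIB3 higher in 5 of 9 libraries, and PHGDH exceeded PSAT1 in 7 of 9.

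At the level of transcripts, 24 transcripts belonged to the 9 genes and 18 of them passed the filter. ATF4, PHGDH, PSAT1, SHMT2 and CHAC1 each had a single transcript, so gene and transcript values differ there only by the scaling. ASNS-201 carried 99.2% of ASNS, and TRIB3-201 carried 99.9% of TRIB3. None of the 18 was called in any comparison, beside 0.0228% of the 39411 transcripts tested in either comparison with CON and 0.0254% in LOW versus HIGH. PSAT1-201 gave 0.33 (SE 0.14) in LOW versus HIGH and 0.36 (SE 0.14) in CON versus HIGH, with limma unadjusted p = 0.0496 and 0.0341 and adjusted p = 0.743 and 0.763.

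Since ATF4 acts on the other genes, its level was compared with theirs over the 9 libraries. The serine genes and TRIB3 ran opposite to ATF4. Pearson's r on log2 levels was -0.86 for PSAT1 (exact two-sided permutation p = 0.000355, adjusted p = 0.0210), -0.85 for PHGDH (p = 0.00428, adjusted p = 0.0249), -0.83 for SHMT2 (p = 0.00509, adjusted p = 0.0267) and -0.81 for TRIB3 (p = 0.00394, adjusted p = 0.0242), all by exact permutation of the libraries with BH adjustment over 24323 genes. Spearman's rho was -0.87, -0.77, -0.82 and -0.87 in the same order (exact permutation p = 0.00451, 0.0214, 0.0108 and 0.00451). The other targets showed no such relation. For CHAC1 r was 0.42 and rho 0.35 (exact permutation p = 0.266 and 0.359), for ASNS 0.37 and 0.07 (exact p = 0.341 and 0.880), for SLC7A11 0.16 and 0.23 (exact p = 0.671 and 0.552), and for DDIT3 r was 0.10 (exact p = 0.785) with a rho of 0.

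Such relations were widespread. The permutation treated all 9 libraries as exchangeable, though they came from 3 groups and differed in small RNA share. Its p therefore does not tell a relation between a pair of genes from differences shared among libraries. Of all genes tested, 31.7% passed the same adjusted threshold of r with ATF4, 13.1% with a negative sign, against 4 of the 8 targets, and by rho 9.11% of all genes and 2 of 8 targets (PSAT1 and TRIB3) passed. Over all genes r was nearer to -1 or 1 than to 0 for many: its lowest and highest 5% began at -0.86 and 0.86. The genes most like ATF4 among the 8543 named genes that reached an FPKM of 1 in all libraries were USP30, which removes ubiquitin at mitochondria (r = 0.98), SNX19, a sorting nexin (r = 0.98), and TMEM164 (r = 0.98). USP30 stood at 8.37, 7.14 and 5.08 in CON, 6.44, 7.71 and 6.00 in LOW, and 9.33, 9.95 and 6.72 in HIGH, the same order of libraries as ATF4 but for the 2 highest.

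The 3 libraries highest in ATF4 were HIGH 1, HIGH 2 and CON 1, the same ones with the least small RNA and the most genes detected. Over the other 6 libraries alone, a choice made after the data were seen, r with ATF4 was -0.78 for PSAT1 (exact permutation p = 0.0569, n = 6), -0.74 for TRIB3 (exact p = 0.0875), -0.68 for SHMT2 (exact p = 0.106) and -0.47 for PHGDH (exact p = 0.367). Without CON library 3 and HIGH library 1, the 2 farthest from the median of ATF4, r was -0.76 for PSAT1 (exact permutation p = 0.0171, n = 7), -0.69 for PHGDH (exact p = 0.0925), -0.67 for TRIB3 (exact p = 0.107) and -0.64 for SHMT2 (exact p = 0.120). With fewer libraries and a narrower range of ATF4, r thus kept its sign. Its p was above 0.05 for all 4 genes over the 6 libraries, and for all but PSAT1 over the 7. With any single library left out, r of these 4 genes stayed at -0.72 or beyond. On FPKM as deposited, without scaling, r was weaker, at -0.64 for PSAT1, -0.68 for TRIB3, -0.68 for SHMT2 and -0.79 for PHGDH. With median of ratios scaling it was -0.89, -0.82, -0.81 and -0.87 in the same order. Within groups, on deviations from the group means, r was -0.87 for PSAT1, -0.84 for SHMT2, -0.81 for PHGDH and -0.75 for TRIB3, and 0.85 for SLC7A11. Among PSAT1, SHMT2, PHGDH and TRIB3, r over their 6 pairs was 0.78 to 0.94 over all libraries. On deviations from the group means it was 0.88 to 0.97. These 4 genes were grouped by their shared r with ATF4 in the same libraries, so their positive r with each other is no separate result.

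**Figure D4:**
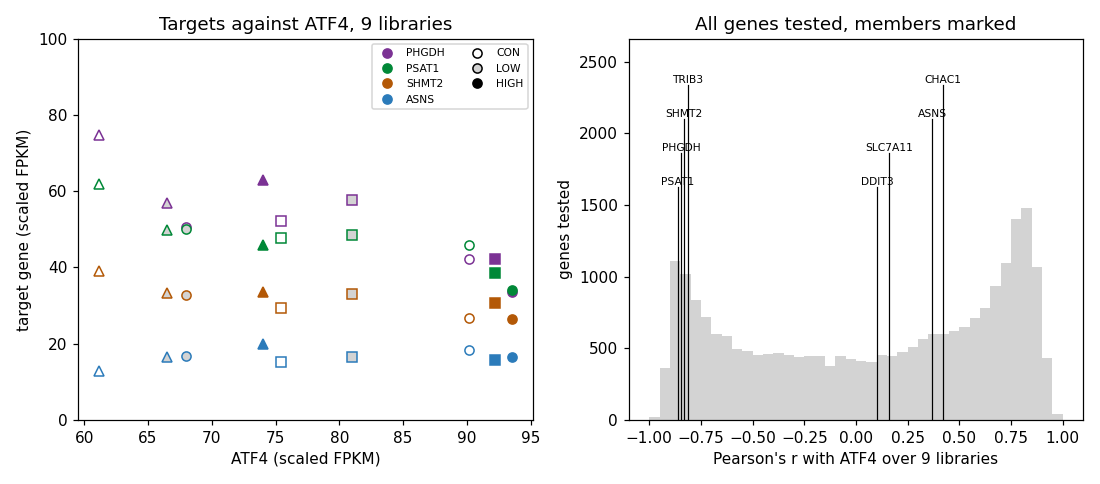
Left, scaled FPKM of PHGDH, PSAT1, SHMT2 and ASNS against ATF4 in 9 libraries, with fill for the group and symbols for libraries 1 (circles), 2 (squares) and 3 (triangles). Right, Pearson's r with ATF4 for all 24323 other genes tested (grey, bins of r) with the 8 targets marked, where PSAT1, PHGDH, SHMT2 and TRIB3 sit in a crowded negative peak of the background.

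Further genes of the pathway were taken from 4 lists of general knowledge: amino acid transport, amino acid and one-carbon synthesis, stress response, and the eIF2 alpha pathway of kinases, phosphatases and exchange factors. The lists were drawn up with earlier results of these data known, so counts over them are a description and not independent of the data. Of the 62 genes listed, 49 had a row and 47 were tested, and none was called in any comparison. At an unadjusted p under 0.05 there were 6 of the 47 in CON versus HIGH (12.8%, beside 6.54% of all genes), 3 in LOW versus HIGH (6.38%, beside 6.84%) and 0 in CON versus LOW (beside 2.17%). The medians of the 47 log2 fold changes were 0.03, 0.05 and 0.02 in that order.

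Of the 7 transporters tested, none passed the unadjusted threshold. SLC38A2, which imports small neutral amino acids, was the most abundant, with ranges of 201 to 203 (CON), 210.0 to 214 (LOW) and 220.0 to 249.9 (HIGH). The 3 groups did not overlap and lay in the order of glucose supply, but no difference passed the test. The log2 fold change was -0.20 in CON versus HIGH (SE 0.11, limma adjusted p = 0.699). It was -0.07 in CON versus LOW (SE 0.11). Among all genes tested, 6.58% separated CON from LOW, 9.85% CON from HIGH and 17.7% LOW from HIGH. The share with all 3 groups apart in this order was not counted, and SLC38A2 was named for its small p. SLC3A2, the partner chain of SLC7A11, was higher in all CON libraries (35.9 to 44.7) than in LOW (32.9 to 34.3), with a log2 fold change of 0.23 (SE 0.12, limma adjusted p = 1).

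Of 8 enzymes of amino acid and one-carbon synthesis, CTH, which makes cysteine from cystathionine, was the one below the unadjusted threshold. It held 9.98, 11.5 and 13.6 in CON, 9.97, 10.3 and 9.55 in LOW, and 7.41, 7.96 and 8.65 in HIGH. HIGH lay below both other groups, as for PSAT1, with a log2 fold change of 0.53 in CON versus HIGH (SE 0.14, limma unadjusted p = 0.00408, adjusted p = 0.699). GOT1, which makes aspartate, overlapped in all comparisons, with 0.28 (SE 0.17) in CON versus HIGH.

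Among 18 stress genes, STC2, a secreted glycoprotein induced by the unfolded protein response, had the smallest p. Its levels were 0.703, 0.701 and 0.889 in CON, 1.11, 0.815 and 1.10 in LOW, and 1.86, 1.92 and 1.66 in HIGH. All HIGH libraries exceeded all others, with log2 fold changes of -1.15 in CON versus HIGH (SE 0.21, limma unadjusted p = 0.000338, adjusted p = 0.433) and -0.80 in LOW versus HIGH (SE 0.21, adjusted p = 0.684). ATF3, a transcription factor often raised together with ATF4, went the other way, with ranges of 0.719 to 1.02 (CON), 0.650 to 0.942 (LOW) and 0.390 to 0.612 (HIGH), and a log2 fold change of 0.69 in CON versus HIGH (SE 0.26, limma adjusted p = 0.699). At the unadjusted threshold the list gave 2 genes higher and 2 lower in CON versus HIGH, where 6.54% of all genes passed, and 0 higher and 2 lower in LOW versus HIGH, where 6.84% did.

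In the eIF2 alpha pathway, 14 genes were tested. GCN1, the ribosome-bound activator of the amino acid sensor kinase GCN2, ranged over 10.8 to 12.0 (CON), 10.0 to 11.0 (LOW) and 11.9 to 16.8 (HIGH), with a log2 fold change of -0.45 in LOW versus HIGH (SE 0.14, limma unadjusted p = 0.0106, adjusted p = 0.684). EIF2B2, a subunit of the exchange factor that phosphorylated eIF2 blocks, did not separate the groups (0.28 in CON versus HIGH, SE 0.15).

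A gene known to respond to glucose was examined beside the ATF4 targets. TXNIP, whose transcription follows glucose through the factors MondoA and ChREBP, had levels of 69.9, 89.7 and 104 in CON, 212, 227 and 229 in LOW, and 179.8, 204 and 214 in HIGH. No CON library came near the others, whereas LOW and HIGH overlapped. The log2 fold change was -1.36 in CON versus LOW (SE 0.16) and -1.19 in CON versus HIGH (SE 0.16). As a gene it missed the threshold (limma adjusted p = 0.130 and 0.168), and over 19 fits, counting those with other settings or with a library left out, it was called in 5 and 4, with adjusted p from 0.0236 to 0.848 and from 0.0254 to 0.841. As the transcript TXNIP-201 it was called in CON versus LOW (-1.38, limma adjusted p = 0.0407) and missed it in CON versus HIGH (adjusted p = 0.0558). Among the 8 targets of the opening list with a row, the log2 fold change farthest from 0 was -0.55, that of the DDIT3 row in LOW versus HIGH.

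**Figure D5:**
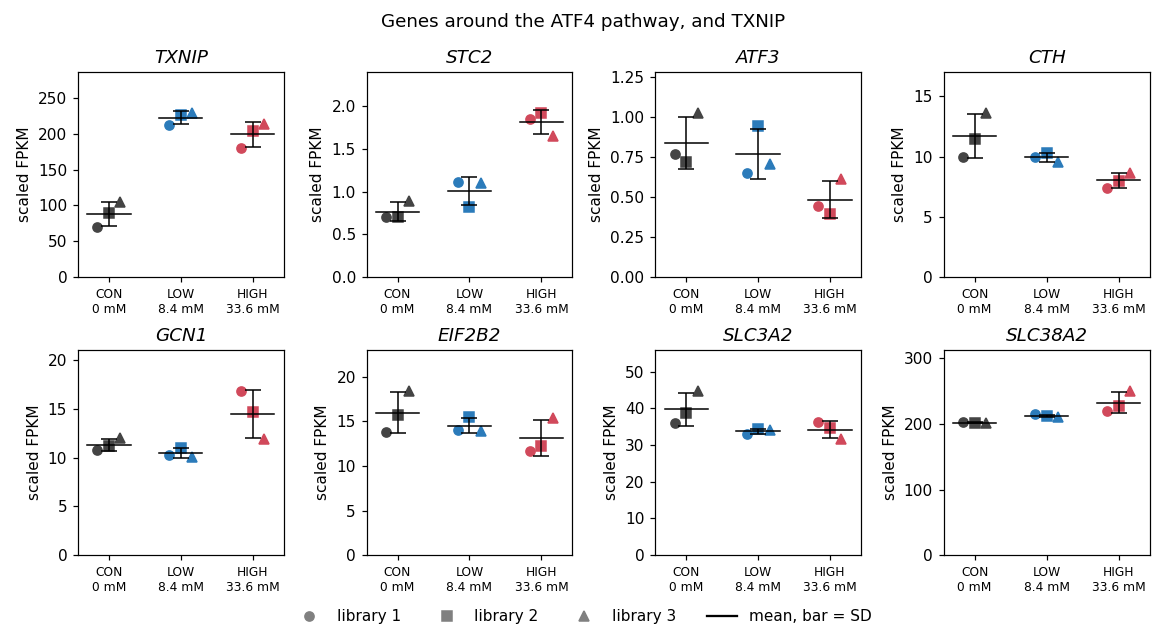
Scaled FPKM of TXNIP, STC2, ATF3, CTH, GCN1, EIF2B2, SLC3A2 and SLC38A2 in every library of CON (0 mM), LOW (8.4 mM) and HIGH (33.6 mM), with group mean (line) and SD (bar, n = 3) on axes that start at 0. TXNIP separates CON (69.9 to 104) from both groups with glucose, and STC2 separates HIGH (1.66 to 1.92) from the other groups.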

How the data were processed

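The authors depleted ribosomal RNA, sequenced paired-end reads, aligned them with Hisat2 and assembled transcripts with Stringtie. They deposited FPKM per transcript and per gene. Their tables of read counts are treated as scores here. In every library each transcript value compared, all above a floor, lay within 3% of FPKM times genomic span times a library factor. The gene scores were not compared in this way and were taken to be alike. These deposited scores were thus not used as counted reads, served only for the library factors and an upper bound on the fragments of CHAC1, and no count model was run. The genome build is not given in the sources used here. All 9 libraries were used and 0 columns lacked a sample.

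In each library the 9978 Ensembl genes with no symbol were on a different FPKM scale and were put on that of the others by 1 factor, and libraries were scaled on the median of genes with FPKM of 1 or more everywhere. Genes or transcripts with FPKM of 0.1 or more in 3 libraries were tested with limma (version 3.58.1, R 4.3.3), with trend, on log2(FPKM + 0.1), the 3 groups in 1 model and BH adjustment over all features. The fit was tested on simulated data. Correlations used all 362880 orders of the libraries (numpy 2.4.6). The members and lists were chosen with earlier results of these data known. Named are all members, the 2 genes of each further list with the smallest unadjusted p, the 3 genes most correlated with ATF4, TXNIP and tested transcripts of members. MARS and the cell markers were named for the results they touch, MARS after its position was seen. Promoter sequences were not analysed here. Alternatives were FPKM as deposited, median of ratios scaling, a pseudocount of 1, no filter, FPKM of 1 or more, 2 groups alone, the replicate number as a block, the small RNA share as a covariate, each library left out and, added after the data were seen, spans of 300 bases or more and 6 libraries for the correlations.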

Additional observations from a re-analysis of the deposited data

How the results depend on the processing

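No member gene or member transcript was called in any comparison under any of the 18 other settings (lowest limma adjusted p of a member gene 0.199). Of the 486 log2 fold changes recomputed for the 9 genes, 457 kept their direction, but many of them could not turn. Other filters, the 2 groups alone, the replicate block and leaving out a library of the group not compared keep the difference of group means. For ATF4 in CON versus LOW, for example, all of these gave the main value of 0.06. The count of 457 therefore overstates the stability. With the small RNA share as a covariate, 10 turned: CON versus LOW gave ATF4 -0.021, TRIB3 0.037, PHGDH 0.18 and SHMT2 0.0061; CON versus HIGH gave TRIB3 -0.042, PHGDH -0.065 and SHMT2 -0.10; LOW versus HIGH gave TRIB3 -0.080, PHGDH -0.24 and SHMT2 -0.11. FPKM as deposited turned CON versus LOW for PHGDH (0.083) and SHMT2 (0.014), and median of ratios scaling turned SHMT2 in CON versus HIGH (-0.0076). Their cause was not tested.

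With a library left out, directions in CON versus LOW turned within ranges of -0.075 to 0.20 for ATF4, -0.24 to 0.0078 for ASNS, -0.33 to 0.037 for TRIB3, -0.010 to 0.27 for CHAC1, -0.081 to 0.14 for PSAT1, -0.23 to 0.18 for PHGDH and -0.23 to 0.038 for SHMT2. In CON versus HIGH the ranges were -0.39 to 0.054 for DDIT3, -0.38 to 0.020 for CHAC1, -0.10 to 0.17 for SHMT2 and -0.00111 to 0.25 for SLC7A11, and in LOW versus HIGH -0.13 to 0.045 for ASNS. The correlation with ATF4 ran from -0.091 to 0.33 for DDIT3, -0.15 to 0.43 for SLC7A11 and -0.093 to 0.55 for ASNS. It was -0.22 for DDIT3 on deviations from group means, -0.56 for DDIT3 over the 6 libraries with more small RNA, and -0.050 for ASNS without CON library 3 and HIGH library 1. By Spearman's rho 2 targets instead of 4 passed.

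The numbers of all genes at an unadjusted p under 0.05, 529 (CON versus LOW), 1590 (HIGH compared with CON) and 1663 (LOW versus HIGH), moved by over 1.5 times in at least 1 comparison without CON library 1 (988, 5653 and 2345), without CON library 3 (1412, 1091 and 2760) and without HIGH library 3 (598, 3034 and 3515). CON versus HIGH fell to 1010 without CON library 2, 831 without HIGH library 1 and 979 without HIGH library 2, and LOW versus HIGH to 840 and 1066 without those HIGH libraries and 926 without LOW library 3. They became 249, 1030 and 1032 with FPKM of 1 or more in 3 libraries, 902, 2149 and 2234 without a filter, 483, 900 and 2923 with the 2 groups alone, and 889, 1348 and 983 with the small RNA share as a covariate. With the replicate block they were 888, 3363 and 3763, and 3 members (PSAT1, DDIT3 and SLC7A11) were under 0.05 in LOW versus HIGH, with 0 called. The replicate numbers were not taken to pair the samples, since this asked for a correlation over 0.1 in every pair. Deviations of same-numbered libraries correlated at 0.31 to 0.71 for numbers 1 and 3 but at -0.04 to 0.01 for number 2. Of the 9 libraries, 6 correlated best with their own number. Deviations cancel out within a group, so a library midway between its partners can correlate weakly even in paired samples. That rule therefore cannot decide whether the numbers mark pairs. Tests for counts were planned and not run, since the deposited scores were taken to be no counts. FPKM gives precision only through library factors, so low genes such as CHAC1 limit what could be seen.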
